A study of Mus musculus with 35 samples.

Results

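The translation initiation factors are the genes whose symbols start with Eif1 to Eif6, here without the Eif2ak kinases, the pseudogenes and the gamma subunits Eif2s3x and Eif2s3y. The pattern alone matched 60 gene names, and 50 members of the 38924 genes in the table were left after those exclusions. RNA was measured in CD8 T cells of C57BL/6 mice, sorted as CD3e+, CD8+, CD44hi and CD62Llo, the surface pattern of antigen-experienced cells. Cells from brain or spleen were kept unstimulated or were given phorbol 12-myristate 13-acetate (PMA) and ionomycin, agents that act on T cells below the receptor, for 2 hours. The 3 unstimulated brain groups were aged males (n = 6), young males (n = 5) and aged females (n = 5), and the brain groups given both agents were aged females (n = 5) and aged males (n = 4). Spleen was taken from aged males only, with 5 libraries in each treatment. The labels give no ages in months and do not say whether the 35 libraries are from separate animals, pools of animals or divided samples, so the p-values measure the spread between these libraries, which may be technical.

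Translation of most messenger RNAs starts when the cap-binding complex eIF4F (the cap-binding protein eIF4E, the scaffold eIF4G and the helicase eIF4A) recruits a small ribosomal subunit that carries eIF3, eIF1, eIF1A, eIF5 and the eIF2-GTP-initiator tRNA complex. After start codon recognition eIF2 leaves with GDP and has to be recharged by the exchange factor eIF2B, the step that eIF2 kinases inhibit in the integrated stress response. The eIF4E-binding proteins hold eIF4E away from eIF4G until mTORC1 phosphorylates them, and T cells are known to raise protein synthesis soon after activation.

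Library totals ranged from 1.16 M to 24.97 M counts (M, mega). All 8 CD8 T cell markers were detected in every group, with a summed level of 3341 to 4372 counts-per-million of the library total (CPM) in unstimulated aged male brain and 2865 to 3756 CPM in unstimulated spleen. After stimulation that sum was 1057 to 2392 CPM in spleen, 450 to 987 CPM in female brain and 159 to 384 CPM in male brain. The mean share of mitochondrially encoded genes was 56.3% in male and 58.6% in female stimulated brain, against 8.88% to 16.3% in the other 5 groups. The stimulated brain libraries therefore stand apart from the rest, and results that rest on them are given last.

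The members were near completely detected in spleen and incompletely in stimulated brain. In unstimulated spleen a mean of 47.4 ± 0.548 of the 50 members had at least 1 count (SD, n = 5), and 47 members had counts in all 5 libraries. The mean was 46 in aged male brain, 44.8 in young male brain and 43.6 in aged female brain, all unstimulated. It was 33.4 ± 5.32 in stimulated female brain (SD, n = 5) and 26 ± 3.56 in stimulated male brain (SD, n = 4), where 12 members had no count in any library. Eif4e1b, a cap-binding paralogue known from the germ line, and Eif2c5, whose symbol belongs to the former naming of the Argonaute family, had no count in any of the 35 libraries. Eif4ebp3 had counts in 2 libraries only.

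**Figure D1:**
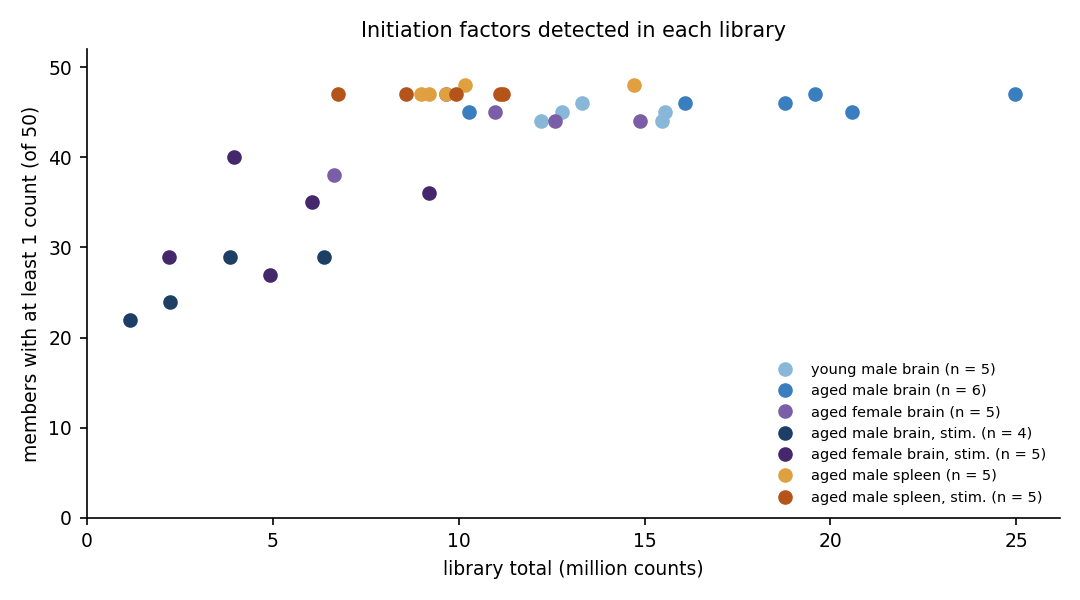
Number of the 50 members with at least 1 count (y axis) against the library total (x axis, M counts), 1 point a library, coloured by group. Stimulated brain libraries lie at 22 to 40 members and the spleen libraries at 47 or 48, and the deepest stimulated brain library (9.20 M counts) held 36 members while the shallowest spleen library (6.75 M counts) held 47.

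On a scale that corrects for transcript length, transcripts-per-million (TPM), the same few members led in spleen and in unstimulated brain. In unstimulated spleen Eif1, which scans for the start codon, had the highest level at 511 ± 91.9 TPM, ahead of Eif4g2, an eIF4G relative that lacks the eIF4E-binding site, at 388 ± 39.5 TPM (SD, n = 5 for both). Eif3e at 258 ± 20.7 TPM, Eif4a2 at 231 ± 34.5 TPM and Eif3h at 224 ± 21.6 TPM followed, and these neighbours differed by less than their spread. The 5 eIF2B subunits lay between 7.14 and 18.1 TPM, and Eif4ebp1, the best known eIF4E-binding protein, at 1.53 TPM. Eif1 and Eif4g2 also held the first and second rank in all unstimulated brain groups, in either order.

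Levels across the 7 groups were steady for some members and scattered for others. Eif3a, the large eIF3 scaffold subunit, lay at 173 ± 13.9 TPM in unstimulated and 187 ± 18.5 TPM in stimulated spleen (SD, n = 5 each), and its mean in the 5 brain groups ran from 101 to 180 TPM. Mean levels of Eif3j2, a loosely bound eIF3 subunit, stayed between 30.04 and 42.7 TPM in all 7 groups, with an SD larger than the mean in both stimulated brain groups. Eif1a, which works with eIF1 in scanning, had 38.3 TPM in unstimulated and 46.3 TPM in stimulated spleen, 23.3 to 62.6 TPM in unstimulated brain, 0.058 TPM in stimulated female brain and no count in stimulated male brain. Mean Eif5a, the hypusine-bearing factor that also serves elongation, was 141 to 237 TPM in spleen and unstimulated brain, and 29.96 and 76.2 TPM in stimulated female and male brain. Eif2b5, the catalytic eIF2B subunit, had 13.4 ± 1.67 TPM in unstimulated spleen and 5.23 ± 1.39 TPM in stimulated spleen (SD, n = 5 each), with the groups apart. Eif4enif1, an eIF4E transporter that represses bound messages, had 34.98 TPM in unstimulated spleen and 93.6 ± 122 TPM in unstimulated aged male brain (SD, n = 6), a spread wider than the difference. Eif4ebp2, a close relative of Eif4ebp1, lay at 9.39 TPM in unstimulated spleen, 3.66 TPM in stimulated spleen and at means of 0.016 to 4.81 TPM in the brain groups. Eif6, which keeps the large ribosomal subunit from joining early, lay at 18.8 and 13.1 TPM in unstimulated and stimulated spleen.

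The median spread of members between libraries of a group was below that of genes in general, in every group. Among the 41 members with a mean of at least 10 CPM, the median coefficient of variation in unstimulated spleen was 0.119, against 0.18 over the genes at that level with a count in the group (6505 of 6533). The pair was 0.186 and 0.291 in stimulated spleen, 0.622 and 0.852 in unstimulated aged male brain, and 1.46 and 1.78 in stimulated male brain, there over the 35 members and 4706 genes with a count. The genes were not matched to the members by level, and the part of level in this difference was not tested.

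The spleen comparison asks which members change when memory-phenotype CD8 T cells of aged males are stimulated, and its answer depends on the reference. Scaled so that the typical gene stays level (TMM factors), 15 of the 47 members tested rose and 1 fell, led by the helicases Eif4a1 and Eif4a2, the start codon factors Eif1 and Eif1a and 7 eIF3 subunits. As a share of each library's counts, 1 member (Eif4a1) rose and 18 fell, and 8 of the 15 turned slightly negative (26 of the 47 changed sign in all, each to a negative value). Stimulated libraries gave a larger part of their counts to a few genes: the 20 most abundant genes took 31.3% to 38.5% of counts, against 22.4% to 27.4% in unstimulated spleen. The members' joint share was 0.721% ± 0.0417 of counts in stimulated and 0.817% ± 0.0114 in unstimulated spleen (SD, n = 5 each). In both scalings 35 of the 47 members lay above the median gene, and the members' median exceeded it by 0.37 on the TMM scale and 0.35 on the share scale (log2). In bulk RNA a lower level from fewer cells of a type and from less RNA per cell cannot be told apart.

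By edgeR's quasi-likelihood test with Benjamini-Hochberg adjustment over 11107 genes, the 16 members called were 34% of those tested, where 18.7% of all genes were called. In the higher direction the background was 12.6% and in the lower direction 6.12%. The members' median log2 fold change was 0.29, beside -0.07 over all genes. In 13 members every stimulated library was above every unstimulated one (10.3% of all genes), and in 1 member every stimulated library was below (6.91%). With TMM factors replaced by library totals the median of all genes moved from -0.07 to -0.73, and 523 genes were then called higher and 4377 lower, against 1400 and 680 on the TMM scale. When all 35 libraries shared one estimate of spread, no member passed and 53 of 12956 genes did. CPM values and fold changes in the next paragraphs are on the TMM scale of the comparison at hand unless the share scale is named, so that a library's CPM differ slightly between comparisons.

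**Figure D2:**
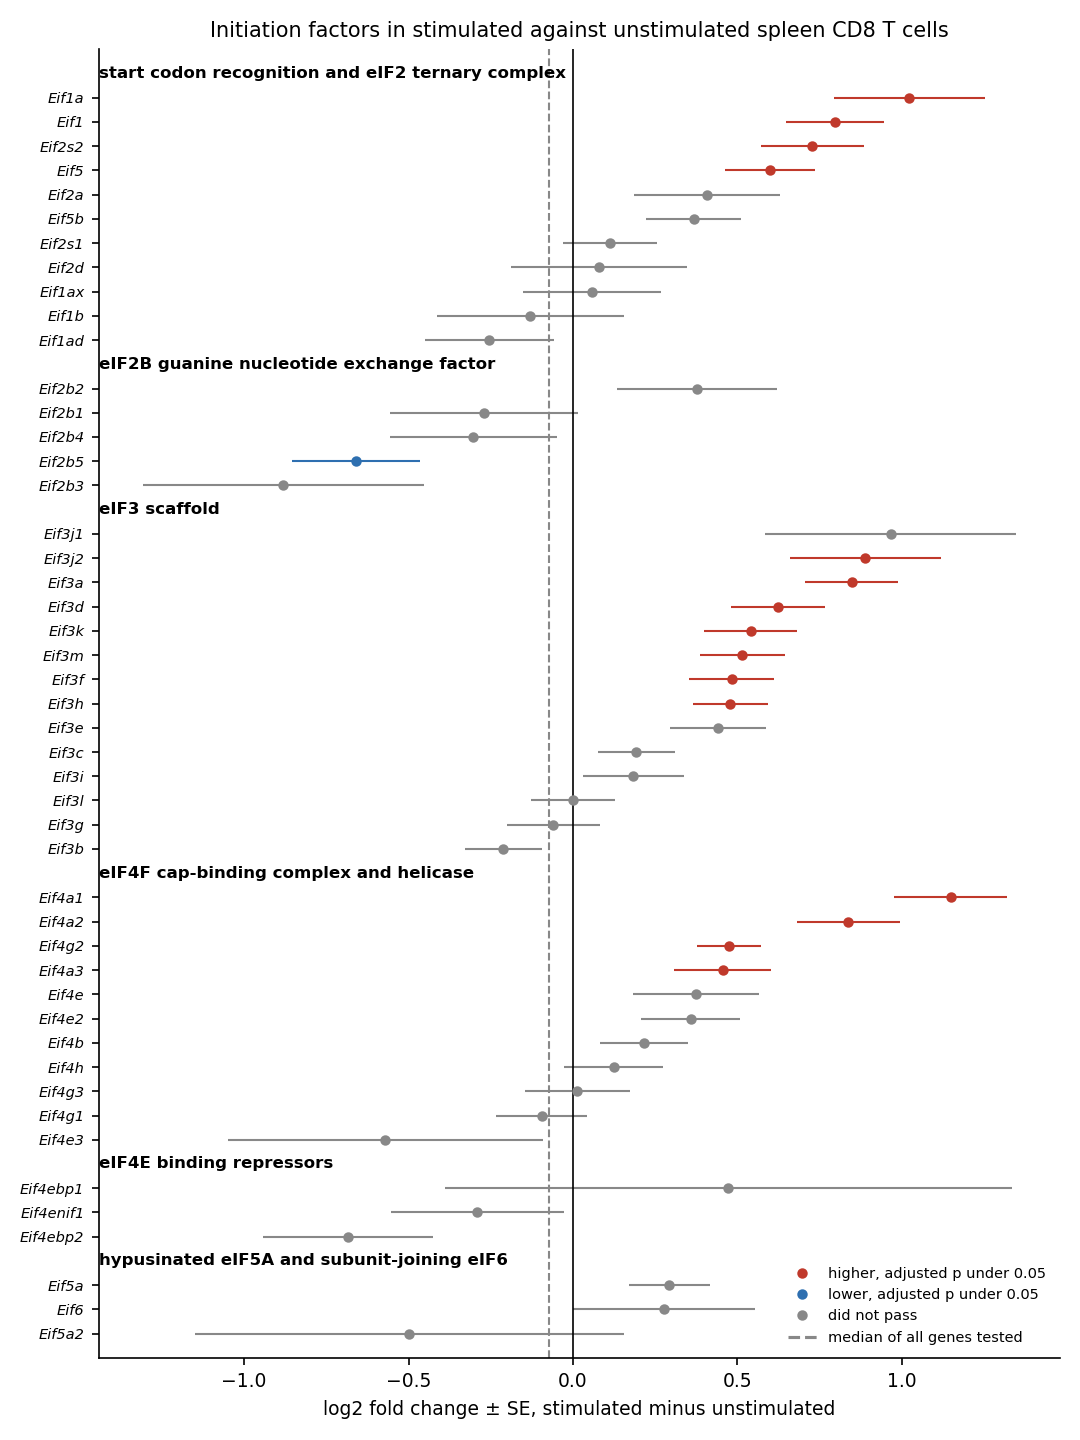
Log2 fold change ± SE on the TMM scale (x axis) of the 47 members tested, stimulated minus unstimulated spleen (n = 5 each), grouped by role, with calls in colour and the median of all genes as a dashed line. Red points cluster among the eIF4A, eIF3 and start codon factors and the single blue point is Eif2b5; on the share scale Eif5, Eif3d, Eif3f, Eif3h, Eif3k, Eif3m, Eif4a3 and Eif4g2 turn negative.

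Among the 11 cap-binding and helicase members tested, 4 rose and none fell on the TMM scale, with a median of 0.36, and 1 rose and 3 fell on the share scale. Eif4a1, the main eIF4A helicase that unwinds leader structure, stood at 581, 408, 443, 379 and 656 CPM in stimulated libraries and at 259, 250, 182, 191 and 230 CPM in unstimulated ones. The groups were well apart, with the lowest stimulated library above the highest unstimulated one. Its log2 fold change was 1.15 ± 0.17 (SE, edgeR's quasi-likelihood test, adjusted p = 0.00054), and on the share scale 0.47 ± 0.15 (adjusted p = 0.022). Reads of Eif4a1 can be shared with its processed copy Eif4a-ps4, which went from 141 ± 26.7 to 381 ± 260 CPM (SD, n = 5 each). Added together, the pair stood at 335 to 394 CPM in unstimulated and 565 to 1438 CPM in stimulated spleen, again without overlap.

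Eif4a2, the paralogue with the same helicase activity, had 306, 407, 296, 358 and 531 CPM stimulated and 200, 198, 233, 205 and 226 CPM unstimulated. Its groups did not overlap, and its log2 fold change was 0.84 ± 0.16 (adjusted p = 0.0025, edgeR's quasi-likelihood test), or 0.16 ± 0.12 on the share scale. In TPM, which uses no TMM factor, Eif4a2 had 231 ± 34.5 unstimulated and 232 ± 40.1 stimulated, while Eif4a1 went from 157 ± 33.3 to 240 ± 54.5 TPM and from the eighth to the third rank (SD, n = 5 each). The TPM ratio of Eif4a1 to Eif4a2 was 0.471 to 0.921 in unstimulated and 0.742 to 1.39 in stimulated libraries, ranges that overlap. Eif4g2 rose by 0.47 ± 0.10 (adjusted p = 0.0045) on the TMM scale and was at -0.19 on the share scale. Eif4a3, a helicase of the exon junction complex, was called at 0.46 ± 0.15 (adjusted p = 0.048) with overlapping groups and was at -0.22 on the share scale. Leaving out any single spleen library except stimulated replicate 38 or 39 lost that call (adjusted p = 0.057 to 0.12). The cap-binding proteins themselves did not pass: Eif4e had 0.37 (adjusted p = 0.2), Eif4e2 0.36 (adjusted p = 0.12) and the low Eif4e3 -0.57. The scaffolds Eif4g1 at -0.09 and Eif4g3 at 0.01 and the helicase cofactors Eif4b at 0.22 and Eif4h at 0.12 did not pass either, and Eif4g1, Eif4g3 and Eif4h fell on the share scale.

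**Figure D3:**
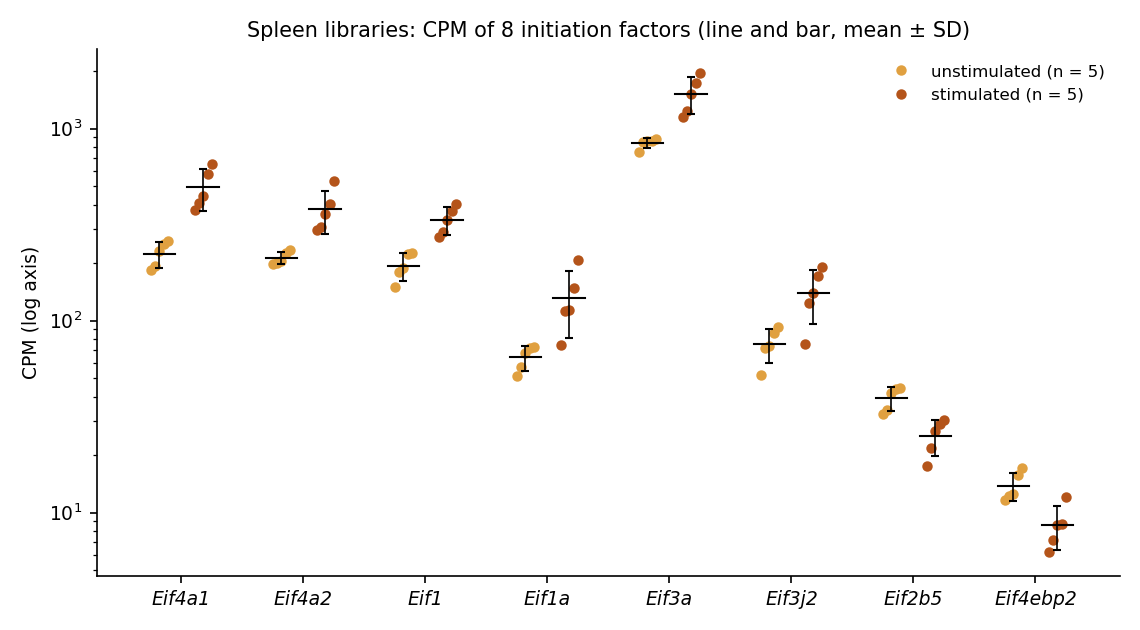
CPM on the TMM scale (y axis, log) of 8 members in each spleen library, unstimulated and stimulated (n = 5 each), with mean ± SD. Eif4a1, Eif4a2, Eif1, Eif1a and Eif3a are fully separated upwards and Eif2b5 downwards; on the share scale only Eif4a1 of those upward members passed the test.

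Promoter sequence was matched for 38 of the 50 members in RefSeq windows of GRCm38.p6, from 250 bases before to 50 bases after an annotated start. The motif CACGTG, the E-box core that Myc-Max and related factors bind, reads the same on both strands and is known from many translation genes. It occurred in 10 of the 38 members (26.3%), in 12.2% of the 7799 tested genes with a window and in 7.15% of all 32851 windows. Of the 11 members with a window that rose on the TMM scale 4 held it, and of the other 27 members 6 held it, and members with several windows had more chances to match. The stress-response and cyclic-AMP motifs TGATGCAA and TGACGTCA were in none of the 38, and in 0.718% and 3.92% of tested genes. The 250 bases before the start are shown for 3 members that rose on the TMM scale and for Eif4h, which did not, so that windows of members with and without a call stand side by side. Capitals mark CACGTG, which starts 189, 68, 44 and 96 bases before the start in Eif4a1, Eif3f, Eif3k and Eif4h. The windows are chr11:69672424-69672673 (minus strand), chr7:108934165-108934414 (plus strand), chr7:28981889-28982138 (minus strand) and chr5:134639410-134639659 (minus strand) in that order.
Eif4a1: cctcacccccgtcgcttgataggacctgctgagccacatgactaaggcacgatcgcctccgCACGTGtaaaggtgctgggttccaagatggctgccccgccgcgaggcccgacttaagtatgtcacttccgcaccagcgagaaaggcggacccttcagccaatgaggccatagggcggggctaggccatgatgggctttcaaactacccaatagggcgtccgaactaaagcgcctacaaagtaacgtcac
Eif3f: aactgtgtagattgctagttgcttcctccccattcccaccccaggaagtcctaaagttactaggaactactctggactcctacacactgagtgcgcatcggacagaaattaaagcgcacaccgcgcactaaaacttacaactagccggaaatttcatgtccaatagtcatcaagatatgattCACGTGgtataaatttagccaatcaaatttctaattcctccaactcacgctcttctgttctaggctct
Eif3k: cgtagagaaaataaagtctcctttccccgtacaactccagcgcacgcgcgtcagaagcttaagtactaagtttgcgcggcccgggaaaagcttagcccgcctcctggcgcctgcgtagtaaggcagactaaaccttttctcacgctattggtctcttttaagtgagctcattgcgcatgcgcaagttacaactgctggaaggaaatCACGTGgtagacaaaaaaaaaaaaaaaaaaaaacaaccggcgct
Eif4h: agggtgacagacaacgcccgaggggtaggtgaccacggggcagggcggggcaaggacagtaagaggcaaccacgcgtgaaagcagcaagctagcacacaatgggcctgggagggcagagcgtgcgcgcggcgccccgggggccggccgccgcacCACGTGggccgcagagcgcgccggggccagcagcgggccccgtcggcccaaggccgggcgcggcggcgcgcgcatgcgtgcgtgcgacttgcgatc
A match is a description of these letters and no measure of binding. Eif4e, which did not pass the test, held 2 matches, and in Eif3a the match lay after the start.

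Of the 11 start codon and eIF2 members 4 rose on the TMM scale, with a median of 0.37, and 3 fell on the share scale, where none rose. Eif1 had 291, 405, 273, 334 and 371 CPM in stimulated libraries and 149, 188, 180, 222 and 224 CPM in unstimulated ones. Those groups did not overlap, and the log2 fold change was 0.80 ± 0.15 (adjusted p = 0.0025, edgeR's quasi-likelihood test), or 0.13 ± 0.14 on the share scale. Eif1a had 112, 148, 74.9, 113 and 206 CPM stimulated and 57.6, 67.9, 72.2, 51.4 and 72.6 CPM unstimulated, a narrow separation set by stimulated replicate 38. It rose by 1.02 ± 0.23 (adjusted p = 0.0078) on the TMM scale and was at 0.33 ± 0.19 on the share scale. Eif2s2, the eIF2 beta subunit, rose by 0.73 ± 0.16 (adjusted p = 0.0059), from 217 ± 25.1 to 360 ± 82 CPM (SD, n = 5 each), with 0.05 on the share scale. Eif5, the GTPase activator of eIF2, rose by 0.60 ± 0.14 (adjusted p = 0.0083), with -0.07 on the share scale. The alpha subunit Eif2s1 was at 0.11 ± 0.14 without a call on the TMM scale, and fell by 0.55 on the share scale (adjusted p = 0.013). Eif5b, which joins the ribosomal subunits, had 0.37 (adjusted p = 0.098), Eif1ax 0.06, Eif1b -0.13, Eif1ad -0.25, and the alternative initiator tRNA carriers Eif2a and Eif2d 0.41 and 0.08, all without a call on the TMM scale. The gamma subunits, left out of the members, had 0.74 ± 0.20 for Eif2s3y (adjusted p = 0.023) and 0.42 ± 0.16 for Eif2s3x (adjusted p = 0.088).

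The eIF3 complex gave the most calls on the TMM scale, 7 of 14 subunits rising and none falling with a median of 0.48, while on the share scale none rose and 5 fell. Eif3a had 1722, 1521, 1155, 1230 and 1942 CPM stimulated and 879, 850, 861, 756 and 860 CPM unstimulated, with a clear gap between the groups. Its log2 fold change was 0.85 ± 0.14 (adjusted p = 0.0012, edgeR's quasi-likelihood test), or 0.17 ± 0.11 on the share scale. Eif3d, which can bind caps itself, rose by 0.62 ± 0.14 (adjusted p = 0.009), and Eif3k, Eif3m, Eif3f and Eif3h rose by 0.48 to 0.54, all 5 with values of -0.06 to -0.18 on the share scale. Eif3k lost the call without unstimulated replicate 30, 31 or 33 (adjusted p = 0.051 to 0.058). Eif3j2 rose by 0.89 ± 0.23 (adjusted p = 0.016), with overlapping groups because stimulated replicate 38 had 75.4 CPM, and lost the call without unstimulated replicate 31 (adjusted p = 0.051). Its near-identical copy Eif3j1 had 0.97 ± 0.38 (adjusted p = 0.1), and the counting may divide reads between them. Their sum was 60.0 to 103 CPM in unstimulated and 88.7 to 214 CPM in stimulated libraries. Eif3e had 0.44 (adjusted p = 0.052), and Eif3c, Eif3i, Eif3l, Eif3g and Eif3b ran from 0.19 to -0.21 without a call on the TMM scale and fell on the share scale.

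The exchange factor eIF2B gave no higher call, in either scaling. Of its 5 subunits 1 fell on the TMM scale, with a median of -0.30, and 4 fell on the share scale. Eif2b5 had 30.4, 17.4, 28.8, 26.6 and 21.7 CPM stimulated and 32.6, 44.7, 44.1, 34.1 and 41.7 CPM unstimulated, without overlap. It fell by 0.66 ± 0.19 on the log2 scale (adjusted p = 0.031, edgeR's quasi-likelihood test), or by 1.30 ± 0.22 on the share scale (adjusted p = 0.00076). On the TMM scale the call was lost without unstimulated replicate 31, 32 or 34 or stimulated replicate 37 or 40, with adjusted p from 0.052 to 0.077. Eif2b3 had -0.88 (adjusted p = 0.18), Eif2b4 -0.30, Eif2b1 -0.27 and Eif2b2 0.38 on the TMM scale.

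Of the eIF4E repressors none passed on the TMM scale (3 tested, median -0.29) and 2 fell on the share scale. Eif4ebp2 had 8.66, 8.70, 12.1, 6.25 and 7.19 CPM stimulated and 12.2, 12.5, 16.97, 11.7 and 15.6 CPM unstimulated, with 1 stimulated library inside the unstimulated range. Its log2 fold change was -0.68 ± 0.26 (adjusted p = 0.085, edgeR's quasi-likelihood test), which passed without stimulated replicate 38 (adjusted p = 0.047), and it fell by 1.33 ± 0.27 on the share scale (adjusted p = 0.0025). Eif4enif1 had -0.29 ± 0.26 (adjusted p = 0.49), and Eif4ebp1, under 4 CPM in every spleen library, 0.47 ± 0.86. Eif5a had 0.29 ± 0.12 (adjusted p = 0.12) on the TMM scale and fell by 0.37 on the share scale (adjusted p = 0.023), and Eif6 at 0.28 and the low Eif5a2 at -0.50 did not pass in either.

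Some other genes of the pathway had larger fold changes than any initiation factor that passed the test. In the integrated stress response list 6 of 12 genes tested rose and 1 fell (median 0.66), with 4 rising and 3 falling on the share scale. The eIF2 phosphatase subunit Ppp1r15a rose by 3.47 ± 0.24 (adjusted p = 5.3e-07) and the transcription factor Atf4 by 3.29 ± 0.25 (adjusted p = 1.7e-06), both by edgeR's quasi-likelihood test, while the kinase co-activator Gcn1l1 fell by 0.45. In the Myc and ribosome biogenesis list 6 of 16 rose and 2 fell on the TMM scale (median 0.24), and 1 rose and 7 fell on the share scale. Myc rose by 4.75 ± 0.43 (adjusted p = 1.3e-05) and the nucleolar protein gene Nop58 by 1.18, while Dkc1 fell by 0.90 and Ubtf by 0.61. Of 9 elongation and termination genes 6 rose (median 0.54), led by the release factor Etf1 at 1.61 and Eef1b2 at 0.77, with 1 rising and 1 falling on the share scale. Of 14 poly(A)-binding and accessory genes 4 rose (median 0.35), led by the helicase Ddx3x at 2.08 and Paip2b at 0.65, with 1 rising and 5 falling on the share scale. The mTORC1 list gave 1 higher call, the activator Rheb at 1.64, and 1 lower call, Mtor at -0.52, of 16 (median -0.19), with 1 rising and 10 falling on the share scale.

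Markers of other cells were measured beside these results. On the share scale the summed B cell markers were at 219 to 726 CPM in unstimulated and 178 to 357 CPM in stimulated spleen. On the TMM scale the markers Cd79a and Ms4a1 rose by 2.13 and 2.25 (log2). Summed microglia and macrophage markers were at 162 to 246 CPM unstimulated and 51.6 to 89.2 CPM stimulated (share scale), with Csf1r lower on the TMM scale, and Tmem119 was at 0 in both groups. On the TMM scale Lck fell of the CD8 T cell markers, and none of the choroid plexus, neuron, astrocyte, endothelium or red cell markers tested passed. On the share scale 6 of 8 CD8 T cell markers fell (median -0.78), as did all 7 microglia and macrophage markers tested. Of 5 B cell markers 3 rose and 1 fell on that scale, and 1 oligodendrocyte and 1 endothelium marker fell. The part of these cells in the members' values was not tested. Mitochondrial genes took 11.8% of counts in unstimulated and 16.3% in stimulated spleen, and leaving them out gave the same 15 higher and 1 lower.

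Comparing brain with spleen in unstimulated aged males, 2 of 47 members were higher in brain and none was lower (4.26%, where 7.37% of all 11040 genes were called, 3.35% higher and 4.02% lower). Both are helicases of the eIF4A family, Eif4a3 and Eif4a2. The members' median was 0.61, beside 0.31 over all genes. Eif4a3 had 145 CPM in the lowest, 311 in the median and 675 in the highest brain library, and 114, 121, 95.8, 90.3 and 97.0 CPM in the 5 spleen libraries. Brain and spleen did not overlap, and the log2 difference was 1.74 ± 0.35 (adjusted p = 0.0049, edgeR's quasi-likelihood test). Eif4a2 had 259, 416 and 618 CPM as lowest, median and highest in brain and 204, 202, 237, 210 and 229 CPM in spleen, also apart, with a log2 difference of 1.01 ± 0.26 (adjusted p = 0.023). In TPM the groups of Eif4a2 overlapped, at 145 to 525 in brain and 187 to 275 in spleen. Those of Eif4a3 stayed apart, at 137 to 529 TPM in aged male brain and 84.0 to 123 TPM in spleen. The other unstimulated brain groups overlapped with spleen for Eif4a3, at 43.9 to 140 TPM in aged females and 3.13 to 312 TPM in young males. With library totals in place of TMM factors neither passed, at 1.16 (adjusted p = 0.055) for Eif4a3 and 0.45 (adjusted p = 0.5) for Eif4a2, the median of all genes moved from 0.31 to -0.24, and 11 of the 47 members turned negative. With DESeq2's size factors that median was 0.71 and 12 members passed. Over all genes 370 were higher and 444 lower with TMM factors, 760 and 437 with DESeq2's size factors, and 139 and 516 with library totals. Leaving out any of the 5 spleen libraries lost the call of Eif4a2 (adjusted p = 0.054 to 0.079), and without brain replicate 7 there were 5 members higher (415 of all 10736 genes). Brain and spleen titles follow different formats, and a difference in preparation cannot be told apart from tissue. Unstimulated spleen libraries are shared by this comparison and the stimulation comparison.

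**Figure D4:**
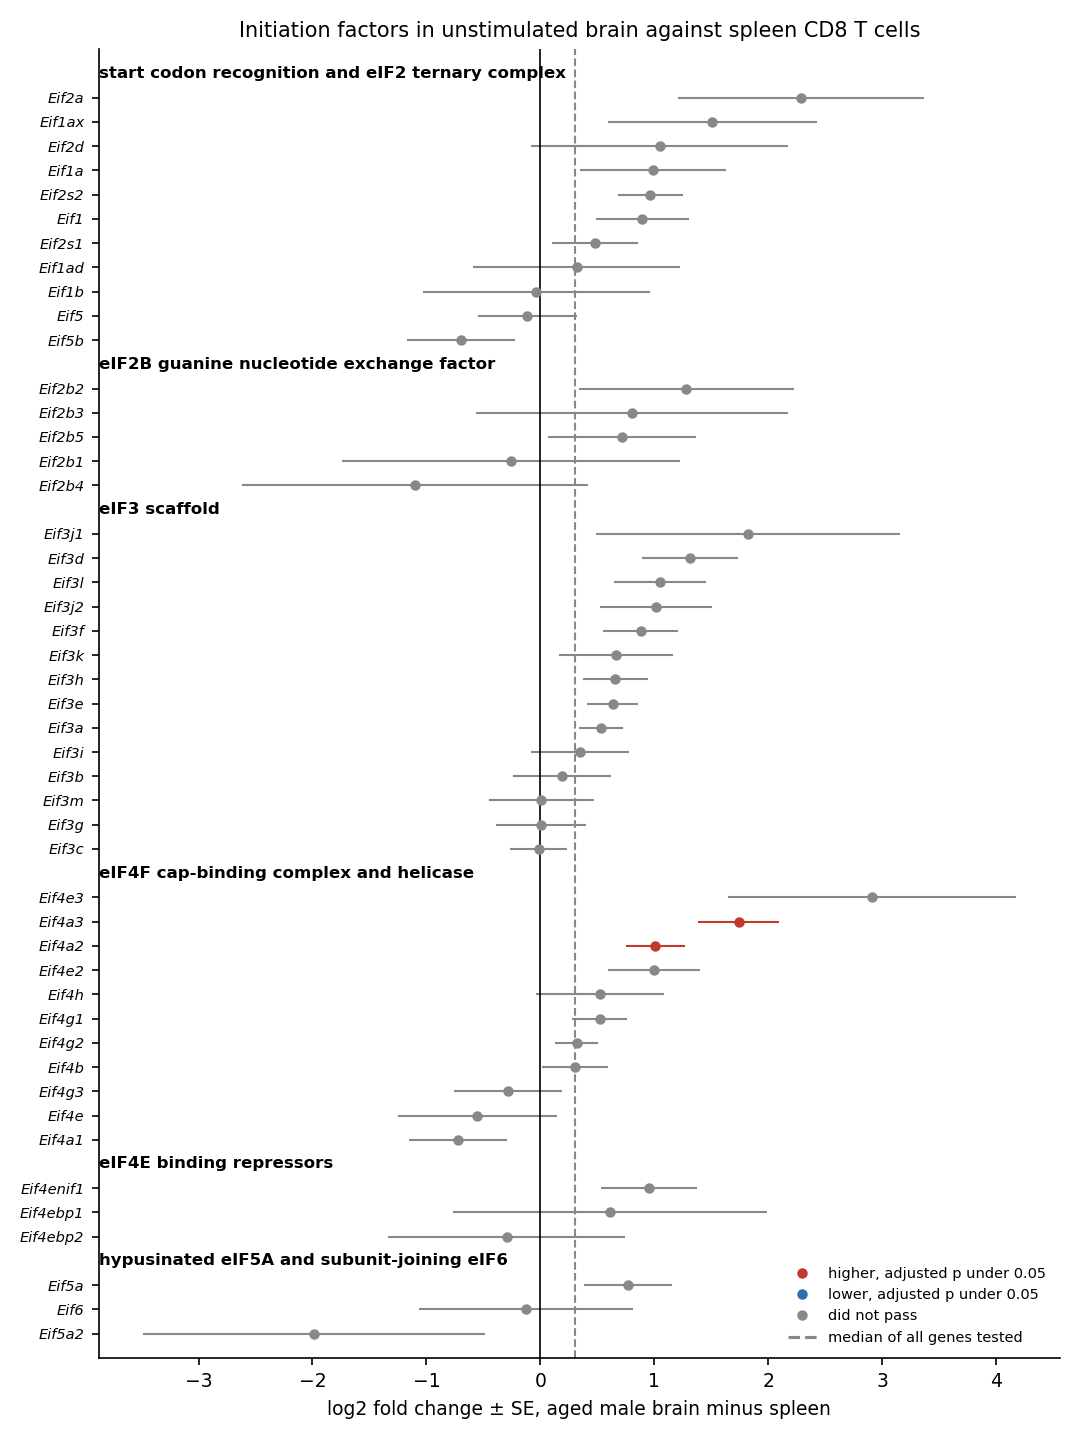
Log2 difference ± SE on the TMM scale (x axis) of the 47 members tested, unstimulated aged male brain (n = 6) minus spleen (n = 5), grouped by role, with the median of all genes as a dashed line. Only Eif4a3 and Eif4a2 passed, most error bars are several times those of the spleen comparison, and neither helicase passed with library totals in place of TMM factors.

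Eif4a1, the third helicase of the family, did not pass, and its value had the opposite sign. It had 25.5 to 254 CPM in brain and 186 to 263 CPM in spleen, overlapping, with a log2 difference of -0.73 ± 0.43 (adjusted p = 0.47). The TPM ratio of Eif4a1 to Eif4a2 had a median of 0.274 in unstimulated aged male brain (0.0195 to 0.945) and 0.704 in unstimulated spleen (0.471 to 0.921), with 0.778 in young male and 1.12 in aged female brain. Eif3d was the other member without overlap, at 1.31 ± 0.42 (adjusted p = 0.084), so that 3 members lay wholly above spleen (3.33% of all genes did) and none wholly below (7.16%). Eif2s2 had 0.97 ± 0.29 (adjusted p = 0.055), Eif3e 0.64 (adjusted p = 0.12), Eif3a 0.54 (adjusted p = 0.14) and Eif1 0.90 (adjusted p = 0.28). No eIF2B subunit, eIF4E repressor or eIF5A or eIF6 gene passed: Eif2b5 had 0.71, Eif2b2 1.28, Eif4enif1 0.95, Eif4ebp2 -0.30, Eif5a 0.77 and Eif6 -0.13. Most of these have wide errors, such as 2.91 ± 1.26 for Eif4e3, at 0.273 to 112 CPM in brain. Outside the members, Ppp1r15a (2.48), Atf4 (2.00), Ddx3x (1.34), Eef1b2 (0.95), Eef2 (0.89), Nop56 (1.46) and Npm1 (1.03) were higher in brain and Mlst8 was lower. By list, 2 of 12 stress response, 1 of 14 poly(A)-binding, 4 of 9 elongation and 2 of 16 ribosome biogenesis genes were higher, and 1 of 16 mTORC1 genes was lower. Cell type markers moved with the comparison. Both choroid plexus markers tested were higher in brain, and the summed list of 4 was at 3.05 to 1419 CPM in brain and 3.73 to 12.98 CPM in spleen (share scale), with Folr1 and Kcne2 at 0 in spleen. Of 8 CD8 T cell markers 3 were higher in brain, Cd8a at 1.51, Cd3g at 1.32 and Cd2 at 0.95 (log2), with a median of 0.53 over the list. Lower in brain were 1 of 3 B cell markers tested (Ighm, -5.52) and the single red cell marker tested (Hba-a2, -6.24). Of 9 microglia and macrophage markers tested 1 was lower, Aif1, with no count in brain. The summed B cell markers were at 0.4 to 28.9 CPM in brain and 219 to 726 CPM in spleen, the red cell markers at 0.153 to 0.68 and 0.977 to 186 CPM, and the microglia and macrophage markers at 9.81 to 437 and 162 to 246 CPM, all on the share scale. The part of these markers in the members' values was not tested.

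**Figure D5:**
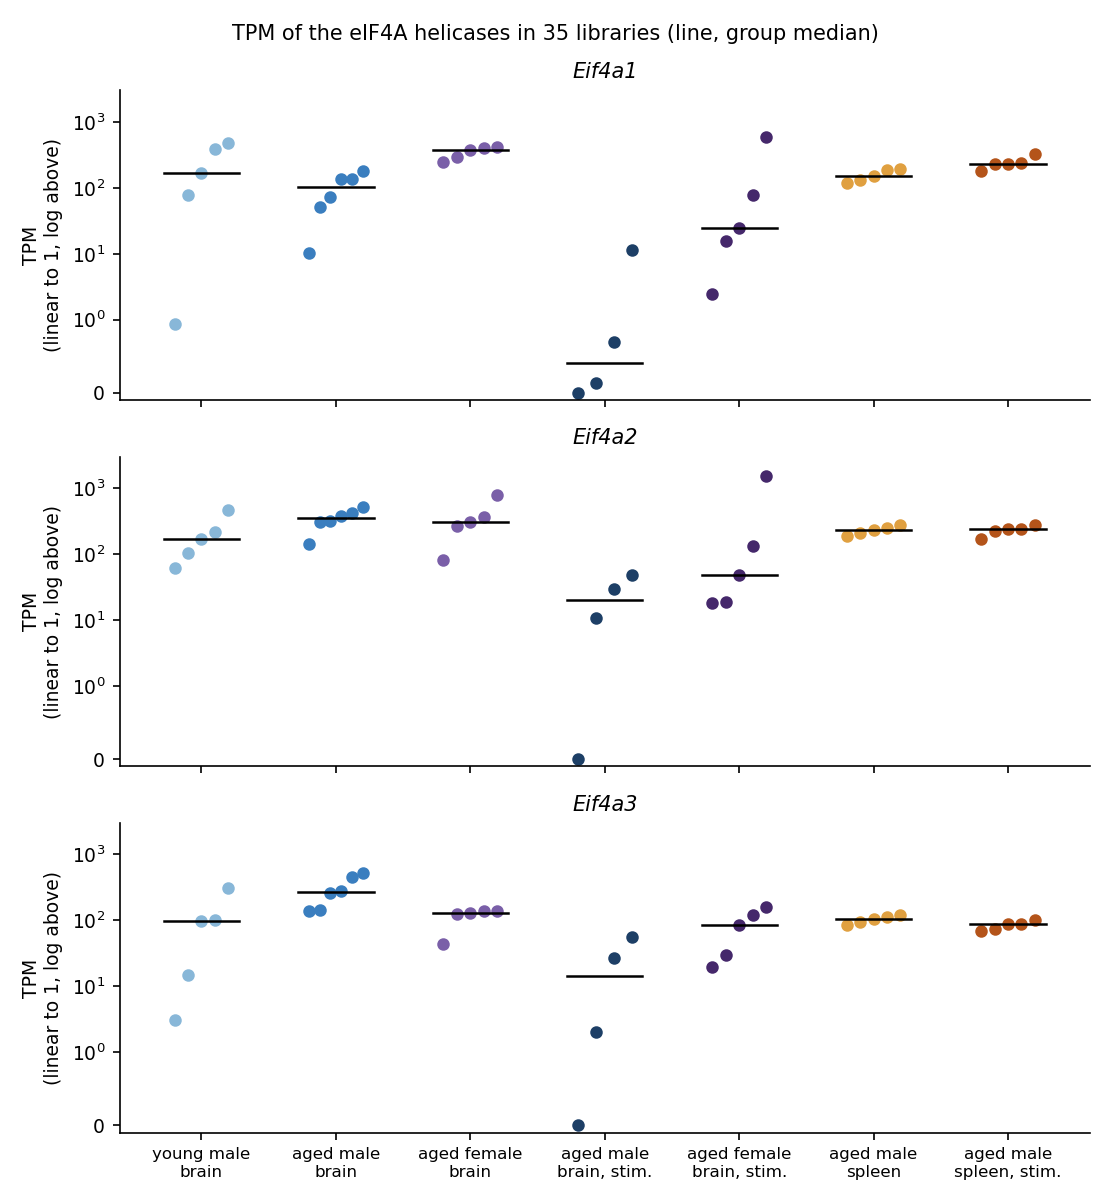
TPM (y axis, linear up to 1 and log above) of Eif4a1, Eif4a2 and Eif4a3 in each of the 35 libraries, with group medians as lines. Spleen libraries lie close together, and stimulated brain libraries spread from 0 to 1512 TPM. The median of unstimulated aged male brain is above spleen for Eif4a3 and Eif4a2 and below it for Eif4a1. Its libraries overlap with spleen for Eif4a2 (replicate 12 at 145 TPM) and for Eif4a1.

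No member passed the test by age or by sex in unstimulated brain. Between aged and young males none of 46 members passed by edgeR's quasi-likelihood test, and none of all 8068 genes did (0%), with 374 genes and 2 members at an unadjusted p under 0.05. DESeq2's test called no member and 76 genes. Those 2 members were Eif4a1, at 414 ± 367 CPM in young males (n = 5) against 112 ± 66.3 CPM in aged ones (n = 6, SD), and Eif4e at a log2 difference of -1.89 ± 0.89, both with adjusted p = 0.99. The young libraries had 906, 3.03, 314, 182 and 666 CPM of Eif4a1, so that replicate 3 lay below all aged ones. The members' median was -0.12, beside -0.08 over all genes. With errors of this size a missing call does not show equal levels.

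Between aged females and aged males 0 of 47 members passed, where 0.15% of all 8691 genes (13) passed. At an unadjusted p under 0.05 were 4 of the 47 members and 365 of the 8691 genes. DESeq2's test called no member and 22 genes. Eif4a1 was at 609, 182, 755, 439 and 326 CPM in females and at 23.5 to 244 CPM in males, a log2 difference of 1.84 ± 0.51 (adjusted p = 0.41). Eif4a3 was at 23.2 to 142 CPM in females and 133 to 624 CPM in males, at -1.76 ± 0.51 (adjusted p = 0.44). Both overlapped by 1 library of each sex. Eif5 had 1.12 and Eif3f -0.91, both with adjusted p = 1. The members' median of -0.28 was that of all genes, and 11 of the 47 members turned positive on the share scale. Some sample numbers (S numbers) in the titles occur in both sexes, which may mark different preparations. Such a difference cannot be told apart from sex. The aged male libraries are shared by the age, sex, tissue and male stimulation comparisons.

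In stimulated male brain 12 of 42 members tested fell and none rose (28.6%, where 38.1% of all 7540 genes were called, 36.4% lower and 1.75% higher). With genes at 0 set to a floor of 3 counts per library, the median log2 ratio of group means was -2.03 for the members and -2.07 for all genes. Many were at 0: 6 tested members had no count in any of the 4 stimulated libraries (29% of all genes had none). Against that floor Eif2s2 was at least 198-fold lower, Eif3l at least 95.3-fold, Eif1a at least 60.2-fold, Eif1ad at least 20.6-fold, Eif2b2 at least 18.3-fold and Eif1b at least 15.03-fold. The other 6 that fell were Eif4enif1, Eif2a, Eif4e, Eif4h, Eif3k and Eif2s1. The call of Eif2s1 was lost on leaving out any library except stimulated replicate 19 (adjusted p = 0.06 to 0.086), and that of Eif3k without stimulated replicate 20, 21 or 22 or unstimulated replicate 9 or 11 (adjusted p = 0.05 to 0.056). Eif3a, by contrast, had 2227, 717, 4152 and 1448 CPM stimulated and 576 to 1145 CPM unstimulated, a log2 difference of 1.21 ± 0.62 (adjusted p = 0.14). Single libraries carried other members: Eif1 was at 2.07, 0.453, 1029 and 1.08 CPM, and Eif5a at 1.03, 0, 606 and 0 CPM, high in replicate 21 alone. Without that library Eif5a fell by 8.63 (adjusted p = 0.0084). In 14 members all stimulated libraries lay below all unstimulated ones (34.5% of all genes did), and in none above (2.19%). Titles of stimulated and unstimulated male brain also share an S number, which may mark different preparations. Such a difference cannot be told apart from stimulation.

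In stimulated female brain 2 of 43 members fell and none rose (4.65%, where 6.09% of all 6305 genes were called, 4.17% lower and 1.92% higher). Eif1ax, the X-linked eIF1A, had no count in 5 stimulated libraries (nor had 2.36% of all genes) and 32.4 to 164 CPM in unstimulated ones, at least 78.4-fold lower (adjusted p = 0.014, edgeR's quasi-likelihood test). Eif4e, the cap-binding protein, had no count either and 7.04 to 122 CPM unstimulated, at least 38.7-fold lower (adjusted p = 0.023). The call of Eif4e was lost without unstimulated replicate 13, 14, 16 or 17 (adjusted p = 0.058 to 0.061), and without stimulated replicate 26 there were 4 members lower (410 of all 7360 genes). With genes at 0 set to the floor, the median log2 ratio was -0.25 for the members and -0.42 for all genes. Eif3a had 1491, 834, 2452, 1794 and 1159 CPM stimulated and 488 to 911 CPM unstimulated, at 1.18 ± 0.40 (adjusted p = 0.12), or -0.21 on the share scale. On that scale the median of all genes was -1.81 in place of -0.41, and 49 genes were higher and 487 lower, against 121 and 263 with TMM factors, while 13 of the 43 members turned negative. Eif5b was at 1.64 ± 0.76 (adjusted p = 0.31) in females, or at 0.27 on the share scale. All its stimulated female libraries were above the unstimulated ones, but narrowly, with 87.31 CPM in the lowest against 86.95 CPM in the highest. In males Eif5b was at 3.08 ± 1.42 (adjusted p = 0.1), or at 2.13 on the share scale. The stimulated male libraries had 80.3, 99.6, 3319 and 0 CPM, high in replicate 21 alone, against 25.4 to 188 CPM unstimulated. In females Eif5b was the 1 member without overlap upwards (3.82% of all genes were) and 4 lay wholly below (9.55%).

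Stimulated brain and stimulated spleen of aged males were compared directly and as a difference of responses. Directly, 15 of 45 members were lower in brain and none higher (33.3%, where 48.5% of all 9135 genes were called, 46.7% lower and 1.82% higher). In 21 members all stimulated brain libraries lay below all stimulated spleen libraries (53.3% of all genes), and in none above (1.3%). With genes at 0 set to the floor the median log2 ratio was -1.44 for the members and -1.38 for all genes. Of the eIF2B subunits 4 of 5 were lower, and of the eIF3 subunits 2 of 14, Eif3k and Eif3l, the former without a call when stimulated spleen replicate 36, 37 or 38 was left out (adjusted p = 0.05 to 0.054). The response to stimulation differed between brain and spleen in 17 of 47 members, all lower in brain (36.2%, where 37.8% of all 12117 genes were called, 35.7% lower and 2.1% higher). In all comparisons with stimulated brain the CD8 T cell markers and the mitochondrial share given above moved with the members, and their part was not tested. The limits on preparation given above for tissue and for male brain stimulation hold here too.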

How the data were processed

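Bulk RNA-seq of sorted CD8 T cells was read from the deposited gene tables of 35 libraries. The authors deposited RSEM expected counts, TPM and FPKM per gene for each library, per the file headers, and a series table of whole-number counts, which equals the expected counts rounded (largest difference 0.5). Bowtie2 2.2.0, RSEM 1.2.12 and mm10 are named in the submitters' processing notes, and strand handling is not given in the sources used here, so overlapping genes are uncertain. FPKM was not used. TPM served for levels between genes and across groups. Counts of nuclear and mitochondrial genes were fitted with edgeR 4.0.16 (R 4.3.3): filterByExpr with minimum count 10, TMM factors, robust quasi-likelihood fit, two-sided test, Benjamini-Hochberg adjustment over all genes tested, threshold 0.05. Each of 8 comparisons was fitted on its own groups. Groups come from the sample titles. The values of some marker genes are not reported here.

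Alternatives were DESeq2 1.42.0 (size factors and test), no low-count filter, all 35 libraries in 1 fit, no mitochondrial genes (37) and each library left out. A fit on library totals without TMM factors was chosen after seeing the data and is called the share scale. The fits were tested on simulated data with 200 changed genes per fold size. Fewer of these were recovered in every comparison with brain libraries than in spleen, and almost none in those with stimulated brain, so a missing call there says little. Summed marker levels are CPM of library totals. The members and gene lists (6 pathway and 9 marker lists) were chosen with earlier results of these data known. Named in a comparison were up to 6 members per direction with the largest called change at a mean of at least 10 CPM, and up to 2 of highest mean in a role without a call. Other members were named after their values were seen, to account for all of them. No library pair of a group agreed within sampling noise. All 50 members are on the GENCODE M21 annotation. Intervals and floors (3 counts) cover counting error only. Python 3.11.15 with pandas 2.3.3, numpy 2.4.6 and matplotlib 3.10.9 made tables and figures.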

Additional observations from a re-analysis of the deposited data

Results flagged for a closer look

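Over 63 groups of 4 to 10 libraries examined for a single library apart, 6 had one by Dixon's gap criterion, which chance alone meets in about 1 in 20 groups. In unstimulated spleen the total of replicate 33 was 14.71 M counts (M, mega), with the next at 10.18 M counts. In the same group Eif3a was lowest in replicate 33, at 755.8 CPM with the next at 849.5 CPM, and Eif3f was lowest in replicate 30, at 134.4 CPM with the next at 191.4 CPM. In stimulated spleen the mitochondrial share was 20.83% in replicate 40, with the next at 15.58%, and the members' share of counts was 0.7946% in replicate 36, with the next at 0.7097%. In unstimulated young male brain the mitochondrial share of replicate 6 was 10.13%, with the next at 8.782%.

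The response to stimulation differed between brain and spleen of aged males, by the interaction term of edgeR's quasi-likelihood fit, in 17 members, all lower in brain; the same term was called for 37.8% of all genes. Of these, Eif1a, Eif1ad, Eif1b, Eif2s2, Eif2b2, Eif2b3, Eif3l and Eif4ebp1 had no count in any stimulated male brain library, so their fitted log2 differences depend on the prior count and are no sizes: -14.48, -11.67, -11.29, -15.91, -12.12, -9.567, -14.14 and -7.798 in that order. The fitted log2 differences of the others were -9.754 for Eif2a, -4.748 for Eif2s1, -3.12 for Eif3d, -5.619 for Eif3k, -3.299 for Eif3m, -4.087 for Eif4a3, -8.492 for Eif4e, -8.234 for Eif4h and -9.513 for Eif4enif1.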

How the results depend on the processing

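No paired analysis was possible because the replicate numbers in the titles are unique across the series. With library totals in place of TMM factors, 1 member rose and 18 fell in spleen (15 and 1 with TMM factors), and none was higher in unstimulated brain against spleen (2 with TMM factors). On that scale the spleen log2 fold change changed sign for 26 of 47 members, among them Eif5a (-0.37), Eif5 (-0.066), Eif3d (-0.056), Eif3f (-0.17), Eif3h (-0.18), Eif3k (-0.12), Eif3m (-0.14), Eif4a3 (-0.22) and Eif4g2 (-0.19). With all 35 libraries in 1 fit the spleen counts were 0 higher and 0 lower, unstimulated brain against spleen gave 0 higher, male brain stimulation 1 higher and female brain stimulation 5 lower. Of all 12956 genes in that fit 53 were higher and 0 lower in spleen, and 77 were higher in unstimulated brain against spleen. Male brain stimulation had 487 genes higher and female brain stimulation 2064 lower. With DESeq2's size factors unstimulated brain against spleen gave 12 higher, male brain stimulation 2 higher, female brain stimulation 1 higher and stimulated brain against spleen 2 higher, and DESeq2's test gave 14 for the first, 1 for female brain and 2 for stimulated brain against spleen. Over all genes those size factors gave 760 of 11040, 225 of 7540, 151 of 6305 and 319 of 9135 higher in that order. DESeq2's test gave 1354 genes higher for the first, 331 for female brain and 583 for stimulated brain against spleen. Female brain stimulation with stimulated replicates 23 to 25 only gave 1 lower, where 86 of 8757 genes were lower. The stimulated female replicates left out there have titles in the format of the spleen titles. Leaving out each library in turn gave 12 to 17 higher and 0 to 2 lower in spleen, 1 to 5 higher in unstimulated brain against spleen, 0 to 1 higher and 9 to 16 lower in male brain, 1 to 4 lower in female brain, 0 to 1 higher and 13 to 20 lower in stimulated brain against spleen, and 0 to 1 higher and 15 to 24 lower in the difference of responses. Over all genes the same fits gave 1100 to 1562 higher and 454 to 778 lower in spleen. They gave 251 to 489 higher in unstimulated brain against spleen, 2000 to 2731 lower in male brain and 14 to 486 lower in female brain. In stimulated brain against spleen 3367 to 5719 genes were lower, and in the difference of responses 3829 to 4606. In stimulated brain against spleen Eif5a changed sign without stimulated male brain replicate 21, at -7.82 (adjusted p = 0.0014), with values of up to 0.86 without another library. Counts over all genes also moved: unstimulated brain against spleen gave 814 genes, 1878 with DESeq2's test and 1677 without the filter. The causes were not tested. Stimulated brain libraries with few counts per member limit what a zero there can show.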
